A study of Homo sapiens with 12 samples.

Results

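Hyaluronan is a long sugar polymer of the space around cells, and 9 genes that make it, cut it or bind it at the cell surface were described across RPE1 cells treated with doxorubicin alone or with ferrostatin-1. The genes are the synthases HAS1, HAS2 and HAS3, the hyaluronidases HYAL1, HYAL2 and HYAL3, the depolymerase CEMIP and its relative CEMIP2, and the receptor CD44. They were found by gene symbol, and each symbol belonged to 1 identifier among the 22498 of the count table. The set was chosen by function, but with results of these libraries already known. Which measured values it was selected on is not recorded, so the changes of the 9 genes in all 3 comparisons are a description, without p-values.

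RPE1 is an immortalised line from human retinal pigment epithelium, and all 12 RNA-seq libraries come from this 1 line. The 4 control libraries received the solvent DMSO for 72 h. The 4 doxorubicin libraries received 50 nM doxorubicin, a topoisomerase II poison that damages DNA, for 72 h. The 4 libraries of both compounds received the same dose of doxorubicin and, with it, ferrostatin-1 at 5 µM, an antioxidant used to block the lipid oxidation of ferroptosis, which was renewed at 48 h. Ferrostatin-1 was not given without doxorubicin in any library analysed here, so its effect is known only on top of doxorubicin. Replicates carry the numbers 1 to 4 of the table's columns, and nothing states whether they were separate cultures.

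The HAS enzymes sit in the plasma membrane, join UDP-glucuronic acid and UDP-N-acetylglucosamine and push the growing chain out of the cell. HYAL2 is anchored to the cell surface and cuts long chains, HYAL1 is lysosomal and cuts the fragments further, and the enzymatic role of HYAL3 is less clear. CEMIP, also called HYBID or KIAA1199, is needed for hyaluronan breakdown in skin fibroblasts, and CEMIP2, also called TMEM2, is a membrane protein of related sequence that was described as a cell-surface hyaluronidase in mouse. CD44 is the main hyaluronan receptor of many cell types and links the coat to the cytoskeleton. In the eye, hyaluronan fills the vitreous and the matrix between photoreceptors and pigment epithelium.

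Upstream sequence is shown for CEMIP and HAS3, the members whose RNA was lower when ferrostatin-1 was added. Both stretches are from RefSeq on GRCh38.p14, on the plus strand, 5′ to 3′, with bases of annotated exons removed. For CEMIP the 223 bases are chr15:80779120-80779342. For HAS3 the 250 bases are chr16:69107290-69107539, just before the RefSeq start, which lies inside the GENCODE gene. Capitals mark the GC box, GGGCGG or its reverse complement CCGCCC, and GCGTG, the core of the xenobiotic response element.
CEMIP: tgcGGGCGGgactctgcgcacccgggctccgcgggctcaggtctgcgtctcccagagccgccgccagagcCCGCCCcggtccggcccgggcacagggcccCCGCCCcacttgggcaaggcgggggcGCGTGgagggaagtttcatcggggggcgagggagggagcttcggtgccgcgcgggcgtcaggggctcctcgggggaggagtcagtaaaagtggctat
HAS3: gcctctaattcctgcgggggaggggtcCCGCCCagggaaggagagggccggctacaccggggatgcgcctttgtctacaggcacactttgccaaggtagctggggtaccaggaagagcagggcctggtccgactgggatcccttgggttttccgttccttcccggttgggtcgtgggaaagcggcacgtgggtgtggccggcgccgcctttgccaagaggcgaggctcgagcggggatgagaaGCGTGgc

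The motifs were chosen after these sequences had been seen, and each was searched on both strands of windows of 250 bases before and 50 after the RefSeq start. Windows of 8 of the 9 members were searched, and HAS2 was left out of this search. CEMIP held 3 GC boxes, and HAS3 held 1, at -223. GCGTG stood at -124 in CEMIP and at -7 in HAS3. A TATA box, TATAAA, stood at -30 in CEMIP, where the printed stretch ends within it, and HAS3 held none. The AP-1 motif TGANTCA was in neither. The CEMIP2 window held 1 GC box, at -209, and neither GCGTG nor TATAAA. The core of the xenobiotic response element was also found for HYAL2, at -123, and HYAL1, at -180. It stood at 44 in 1 HYAL3 window and was absent from the other. The CD44 and HAS1 windows lacked it. HYAL2, HYAL3 and CD44 were not called with ferrostatin-1 added, and HYAL1 and HAS1 were not fitted. Whether this core has a part in the changes with ferrostatin-1 was not tested. Among all 35116 windows, 44.95% held a GC box, 36.54% GCGTG, 11.53% TATAAA and 7.709% TGANTCA, so neither of the marked motifs is rare. No binding was measured, and a match describes letters only.

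The libraries held 17523920 to 24879198 counts. Control replicate 1 stood apart within its group: its chi-square per degree of freedom against the other control libraries was 8.11 to 14.0, beside 4.87 or less among those 3, and the lowest value between libraries of different groups was 9.87. MKI67, a marker of dividing cells, fell from a mean of 754 CPM (each library's counts as a rate of its TMM-scaled total) in controls to 31.3 with doxorubicin and stood at 28.8 with both compounds. CDKN1A, the p53 target that encodes p21, went from 191 to 1508 and 1452. CYP1B1, listed with them to describe the state of the cells, was at 114, 97.3 and 10.8 CPM in the same order. It was 8.99-fold lower with ferrostatin-1 added than with doxorubicin alone. The part of CYP1B1 in the values of the 9 genes was not tested. Of 15 listed markers of retinal pigment epithelium, 13 were in the table. Of these, 6, among them RLBP1, TYR and LRAT, did not exceed 10 counts in any library. MITF was at 45.3 CPM in controls, 45.0 with doxorubicin and 51.8 with both compounds. Summed markers of this epithelium ran from 74.1 to 76.5 CPM in controls, 78.6 to 82.0 with doxorubicin and 91.3 to 99.0 with both compounds. Within that list RDH5 rose with doxorubicin, from 6.89 to 21.0 CPM, and stood at 26.9 with both compounds, while OTX2 fell from 17.6 to 11.0 and MERTK from 2.93 to 1.70. Neuronal markers summed to 471 to 526, 561 to 591 and 651 to 700.2 CPM, and mesenchymal ones to 7993 to 8592, 6813 to 7408 and 7400 to 7523. Epithelial ones, with KRT8 and KRT18 making up nearly all, summed to 548 to 639, 1083 to 1128 and 1063 to 1174. Immune ones summed to 62.0 to 69.9, 70.9 to 78.4 and 77.5 to 88.0. TUBB3 made up most of the neuronal sum, at 417, 486 and 595 CPM in controls, with doxorubicin and with both compounds. In the same list SNAP25 was at 4.65, 4.67 and 6.49, SYT1 at 33.0, 33.5 and 26.4, and MAP2 at 54.3, 48.1 and 47.5. VIM made up most of the mesenchymal sum, at 7486, 6005 and 6427 CPM. COL1A1 was at 28.4, 17.9 and 16.3, while THY1 was at 415, 677 and 622 and CDH2 at 284, 324 and 331. The part of these markers in the results was not tested. In these bulk libraries, fewer cells that express a gene and less RNA of it per cell cannot be told apart.

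With doxorubicin, CEMIP was 3.06-fold and CEMIP2 2.41-fold higher than in controls, HYAL3 was 1.77-fold higher, and HYAL2, CD44 and the main synthase HAS3 were higher by less. The scarce synthase HAS2 was called lower, with groups that overlap and a call that was lost in 6 of 19 alternatives. With ferrostatin-1 added, CEMIP was 3.29-fold lower than with doxorubicin alone and HAS3 1.62-fold lower, while CEMIP2, HYAL2, HYAL3, CD44 and HAS2 were not called. Of the 9 genes, 7 passed the filter on low counts and were fitted, and HAS1 and HYAL1 were too low. In doxorubicin against control, 6 of the 7 were called higher and 1 lower at an adjusted p below 0.05 in edgeR's quasi-likelihood fit, beside 64.0% of all 13803 genes tested called in either direction, 32.2% higher and 31.8% lower. The 4 libraries of a group lay wholly apart from those of the other for 6 of the 7, beside 58.7% of all genes. In both compounds against doxorubicin, 2 of the 7 were called, both lower, beside 5.01% of all genes called, 2.16% higher and 2.85% lower. The same 2 were the members whose groups lay apart, beside 10.9% of all genes. In both compounds against control, 4 were called higher and 1 lower, beside 64.3% called, 32.0% higher and 32.3% lower, and 4 lay apart, beside 57.7%. The median log2 fold change of the 7 was 0.34, 0.02 and 0.31 in these comparisons, and that of all genes was -0.01, 0.00099 and -0.017. Nothing is read from these shares, since the genes were chosen with such values known, and the doxorubicin and the combined comparisons use the same control libraries.

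**Figure D1:**
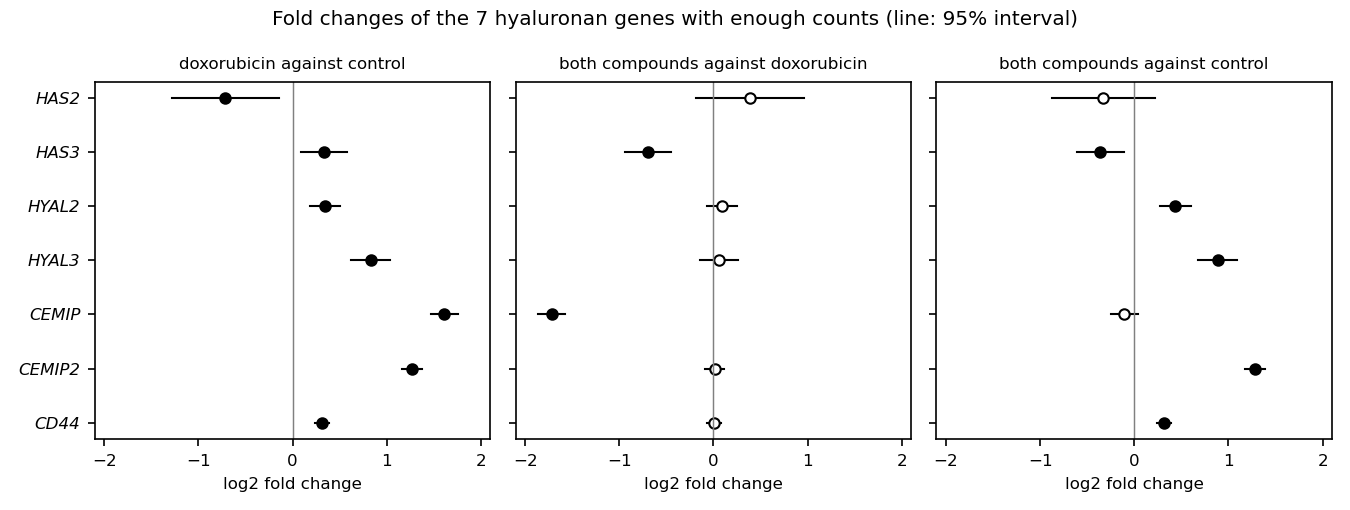
Log2 fold change (horizontal axis) of the 7 fitted genes in each of the 3 comparisons, with 95% intervals as lines; filled points were called at an adjusted p below 0.05 and open points were not. CEMIP stands at 1.61 and then at -1.72, while CEMIP2 stands at 1.27 and then at 0.02.

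Among the synthases, HAS3 had most of the RNA. Its levels were 9.42, 11.1, 11.0 and 11.5 CPM in control replicates 1 to 4, 11.7, 15.7, 12.6 and 14.1 with doxorubicin, and 8.28, 9.62, 7.03 and 8.48 with both compounds. The doxorubicin libraries lay above all others, with the lowest at 11.7 beside a highest control of 11.5, and the libraries of both compounds overlapped the controls only through replicate 2. HAS3 was higher with doxorubicin by a log2 fold change of 0.33 ± 0.11 (SE; 95% interval 0.09 to 0.58). With ferrostatin-1 added it was -0.70 ± 0.12 against doxorubicin (interval -0.94 to -0.45) and -0.36 ± 0.12 against control. The first of these calls was lost when libraries were scaled by their totals alone (0.19), without control replicate 1 (0.27) and without doxorubicin replicate 2 (0.25). The HAS3 gene lies on chromosome 16 from 69105564 to 69118719 (plus strand, GRCh38, as are all positions here), and 365 of its exon bases (7.496%) are shared with the antisense gene CHTF8, whose reads cannot be told apart there because the library kit does not mark strand. CHTF8 was at 60.9 ± 6.20, 72.9 ± 6.05 and 77.4 ± 2.41 CPM in controls, with doxorubicin and with both compounds (SD, n = 4 each). It was called higher with doxorubicin (log2 fold change 0.26 ± 0.071, adjusted p = 0.00531), in the direction of HAS3, and was not called with ferrostatin-1 added (0.09 ± 0.070). Its part in the HAS3 values was not tested.

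HAS2, the synthase best known for long chains and for its need in mouse heart development, was scarce. It had 34, 24, 39 and 29 counts in controls, 24, 19, 15 and 12 with doxorubicin, and 34, 17, 28 and 28 with both compounds. These are means of 1.56 ± 0.263, 0.949 ± 0.291 and 1.24 ± 0.261 CPM (SD, n = 4). The ranges of the groups overlap throughout, with the highest doxorubicin library, replicate 1 at 1.36 CPM, above the lowest control at 1.27. The log2 fold change with doxorubicin was -0.71 ± 0.26 (interval -1.28 to -0.15) and was called lower. It lost that call without the filter on low counts (-0.71), without control replicate 1 (-0.68) or 3 (-0.62), and without doxorubicin replicate 2 (-0.72), 3 (-0.64) or 4 (-0.59). With ferrostatin-1 added the change was 0.39 ± 0.27 against doxorubicin (interval -0.19 to 0.96) and -0.33 ± 0.26 against control, neither called. HAS2 lies on chromosome 8 from 121612116 to 121641390 (minus strand), and 201 of its exon bases (4.80%) overlap the antisense gene HAS2-AS1, which was not analysed here.

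HAS1, the remaining synthase, was at the limit of detection. Its counts were 6, 2, 5 and 3 in controls, 3, 4, 0 and 4 with doxorubicin, and 3, 2, 3 and 5 with both compounds. A count of 0 in doxorubicin replicate 3 allows up to 0.161 CPM there, counting error only, and all groups reach that range, so no difference was detectable at this depth. HAS1 lies on chromosome 19 from 51713112 to 51723994 (minus strand). Per kilobase of exon, HAS3 made up 82.7 ± 3.98% of the RNA of the 3 synthases in controls, 90.4 ± 3.18% with doxorubicin and 82.3 ± 4.55% with both compounds (SD, n = 4). Their sum was 2.67 ± 0.148, 3.07 ± 0.353 and 2.08 ± 0.160 CPM per kb in the same order. The lowest doxorubicin sum, 2.78, fell just below the highest control, 2.80, and every library of both compounds, at 2.23 or less, lay below every control, at 2.47 or more.

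Among the hyaluronidases, HYAL2 was the most abundant. It was at 47.1, 54.5, 56.1 and 62.3 CPM in controls, 65.0, 72.9, 76.2 and 64.6 with doxorubicin, and 74.3, 76.6, 72.4 and 74.7 with both compounds. All treated libraries were above all controls, and control replicate 1 was the lowest of the 12. Its log2 fold change was 0.34 ± 0.075 with doxorubicin (0.27 without control replicate 1), 0.10 ± 0.074 with ferrostatin-1 added (interval -0.06 to 0.25, not called) and 0.44 ± 0.075 for both compounds against control. With scaling by library totals alone the first became 0.20 and the last 0.29, still called. HYAL2 lies on chromosome 3 from 50317790 to 50322906 (minus strand), inside a cluster with HYAL3 and HYAL1.

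HYAL3 was lower in level and changed more. Control libraries held 4.27, 4.14, 4.57 and 4.58 CPM, doxorubicin libraries 7.11, 8.28, 8.15 and 7.64, and libraries of both compounds 7.83, 8.09, 8.57 and 7.99. No treated library came near a control, and the treated groups overlapped each other. The fold change with doxorubicin was 1.77, or 0.83 ± 0.096 on the log2 scale, and that of both compounds against doxorubicin was 0.06 ± 0.093 (interval -0.14 to 0.26, not called). HYAL3, on chromosome 3 from 50292831 to 50299468 (minus strand), shares 248 exon bases (12.5%) with NAA80 and 43 (2.17%) with IFRD2, both on its own strand. NAA80, an actin acetyltransferase, was at 7.55 ± 1.20, 7.87 ± 0.909 and 7.25 ± 0.564 CPM and was not called in any comparison. IFRD2 went the other way from HYAL3 with doxorubicin, with 107 CPM in controls and 86.0 with the drug (-0.31 ± 0.057 on the log2 scale, adjusted p = 0.00021).

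HYAL1, the lysosomal enzyme on chromosome 3 from 50299889 to 50312381 (minus strand), was barely detected. Its counts were 6, 6, 12 and 4 in controls, 2, 6, 6 and 6 with doxorubicin, and 9, 8, 6 and 5 with both compounds, so the groups overlap and it was not fitted. HYAL2 thus made up 84.9 ± 1.29% of the RNA of the 3 HYAL genes per kilobase in controls, 80.6 ± 0.769% with doxorubicin and 80.9 ± 0.831% with both compounds (SD, n = 4). The summed HYAL level was 15.5 ± 1.57, 20.7 ± 1.64 and 22.0 ± 0.349 CPM per kb, with all treated libraries above all controls.

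CEMIP gave the widest swing of the 9 genes. It was at 68.2, 66.8, 56.5 and 64.2 CPM in controls, 200.3, 184, 189 and 208 with doxorubicin, and 55.6, 64.9, 59.8 and 57.5 with both compounds. Every doxorubicin library was far above every other library, and the other groups overlapped. The log2 fold change was 1.61 ± 0.065 (interval 1.47 to 1.75) with doxorubicin and -1.72 ± 0.065 (interval -1.86 to -1.58) with ferrostatin-1 added, the latter 68th in size among the 13803 genes. Against control, both compounds gave -0.11 ± 0.066 (interval -0.25 to 0.04), which was not called. That value became a call of lower without control replicate 3 (-0.17) and when libraries were scaled by totals alone (-0.26), a scaling that moved the median of all genes to -0.17 in the same comparison. CEMIP lies on chromosome 15 from 80779343 to 80951776 (plus strand), and 102 of its exon bases (1.38%) are shared with the antisense gene MESD, a chaperone of LDL receptor family proteins. MESD was at 72.1 ± 3.51, 57.6 ± 2.72 and 56.9 ± 1.64 CPM, lower with doxorubicin (adjusted p = 3.47e-05) where CEMIP was higher, and not called with ferrostatin-1 added.

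CEMIP2 was higher in all libraries with doxorubicin, whether or not ferrostatin-1 was added. Controls held 82.8, 75.5, 76.4 and 76.7 CPM, doxorubicin libraries 193, 185, 183 and 189, and libraries of both compounds 175, 186, 200.1 and 198. The treated groups overlapped and lay wholly above the controls. The log2 fold change was 1.27 ± 0.049 (interval 1.16 to 1.37) with doxorubicin, 0.02 ± 0.047 (interval -0.08 to 0.12) with ferrostatin-1 added, and 1.28 ± 0.049 for both compounds against control. CEMIP2 lies on chromosome 9 from 71683366 to 71816690 (minus strand).

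Set side by side per kilobase of exon, CEMIP made up 40.0 to 44.4% of the RNA of the CEMIP and CEMIP2 pair in the control libraries, 47.3 to 49.8% with doxorubicin and 20.8 to 23.9% with both compounds. The 3 ranges do not overlap. The summed level of the pair was 20.4 ± 1.05 CPM per kb in controls, 54.7 ± 2.03 with doxorubicin and 36.6 ± 1.90 with both compounds (SD, n = 4). With both compounds the sum thus stood between the other groups and apart from each, with CEMIP2 holding the larger share.

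CD44, the receptor, was by far the most abundant member and moved little. It was at 821, 774, 791 and 770.0 CPM in controls, 989.7, 995, 972 and 959 with doxorubicin, and 966, 955, 1023 and 983 with both compounds. All treated libraries were above all controls, and the treated groups overlapped. The log2 fold change was 0.31 ± 0.034 with doxorubicin, 0.00 ± 0.033 with ferrostatin-1 added (interval -0.07 to 0.08) and 0.31 ± 0.034 for both compounds against control. With scaling by library totals alone the first became 0.17 and the last 0.16, still called. CD44 lies on chromosome 11 from 35138870 to 35232402 (plus strand). Its splice forms, which differ in how they bind hyaluronan, cannot be read from counts per gene.

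**Figure D2:**
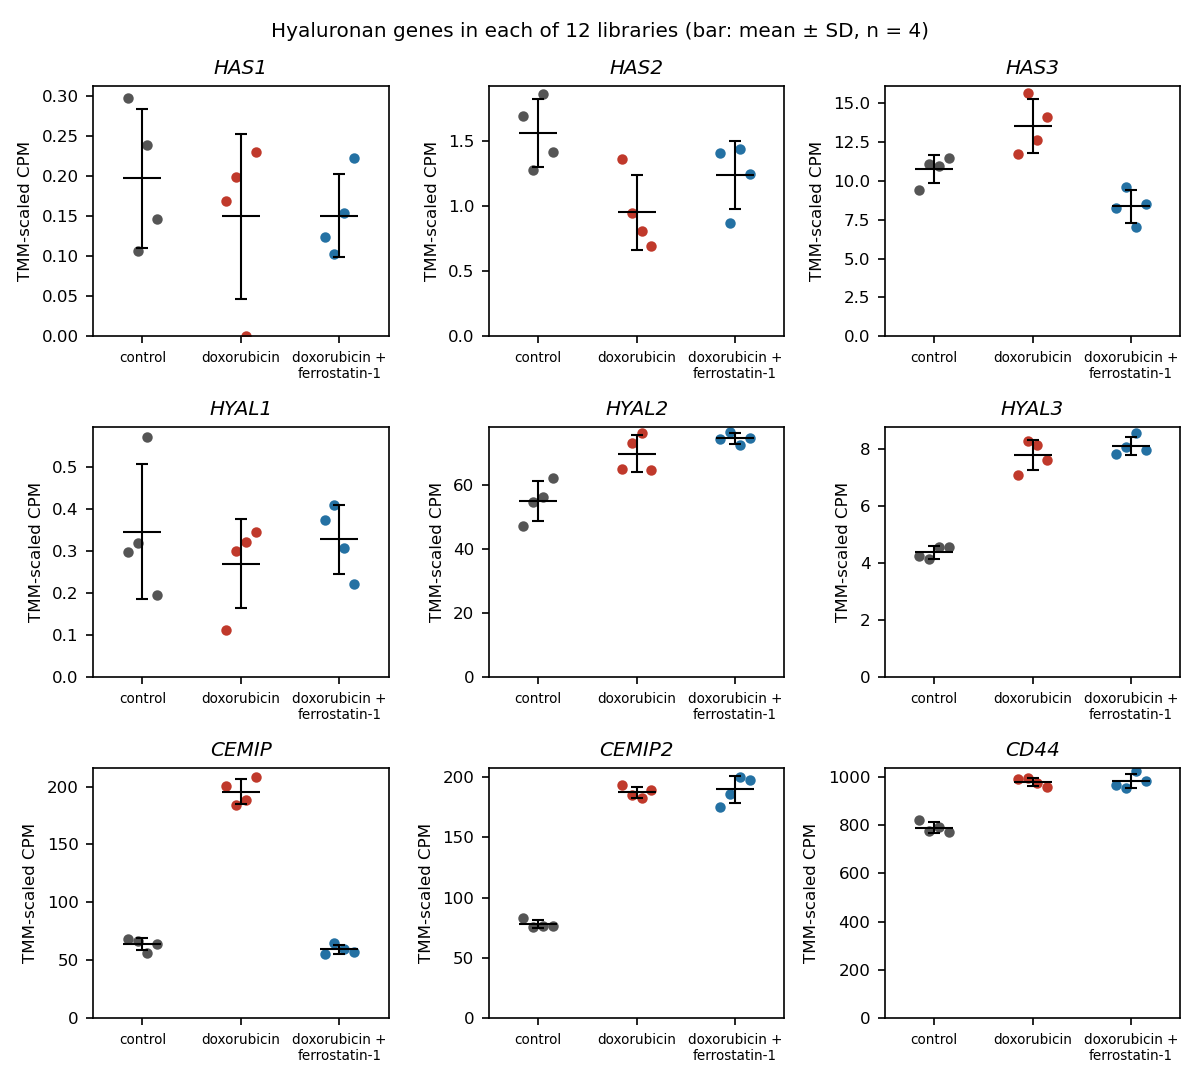
Level of each of the 9 genes (vertical axis, TMM-scaled CPM from 0, own scale per gene) in the 4 control, 4 doxorubicin and 4 doxorubicin plus ferrostatin-1 libraries; points are libraries and the bar is the mean ± SD. CEMIP and HAS3 are the genes whose combined-treatment libraries all lie below the doxorubicin libraries.

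The order of levels per kilobase changed between groups in the middle ranks only. In controls CD44, at 129.3 CPM per kb, was followed by HYAL2 (13.2) and CEMIP2 (11.7), whose libraries overlap, then CEMIP (8.66). HYAL3 (2.22) and HAS3 (2.20) came next and overlap, then HAS2 (0.372), and HYAL1 (0.111) and HAS1 (0.0890), which overlap. With doxorubicin CD44 (160.4) was followed by CEMIP2 (28.2) and CEMIP (26.5), which overlap, and then by HYAL2 (16.7), HYAL3 (3.94), HAS3 (2.78) and HAS2 (0.227), each apart from its neighbours. With both compounds the order was CD44 (160.8), CEMIP2 (28.5), HYAL2 (17.8), CEMIP (8.05), HYAL3 (4.10), HAS3 (1.72) and HAS2 (0.296), with no overlap between neighbours. HYAL1 and HAS1 came last and overlapped in every group. CEMIP thus stood below HYAL2 in controls, above it with doxorubicin and below it again with both compounds.

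**Figure D3:**
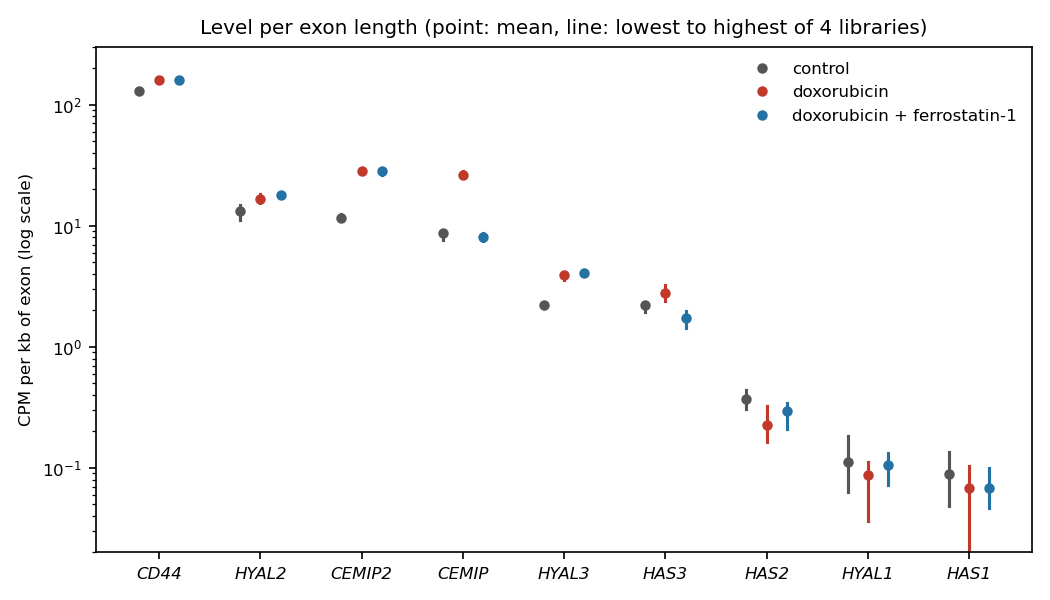
Mean level per kilobase of exon (vertical axis, CPM per kb, log scale) of the 9 genes in the order of the controls, with lines from the lowest to the highest of 4 libraries in each group. A level of 0, in 1 HAS1 doxorubicin library, is drawn at the axis limit of 0.02; CEMIP stands at 8.66, 26.5 and 8.05.

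Genes with the pattern most like that of CEMIP and CEMIP2 were ranked by the root mean square difference of log2 CPM over the 12 libraries, each gene centred on its own mean, among 11056 protein-coding genes. For CEMIP the nearest were SLC7A5, a transporter of large neutral amino acids, at 0.329, THBS1, the matrix protein thrombospondin-1, at 0.405, and KCNJ2, a potassium channel, at 0.426. SLC7A5 had means of 394, 912 and 480 CPM in controls, with doxorubicin and with both compounds, THBS1 2823, 5703 and 3392, and KCNJ2 12.4, 24.0 and 14.3. None of the 11056 came within 0.25 of CEMIP. For CEMIP2, 572 genes did, and the nearest were TNFRSF10B, a death receptor and p53 target, at 0.0476, KCTD20 at 0.0534 and FAM8A1 at 0.0572. TNFRSF10B was at 116, 269 and 270 CPM.

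**Figure D4:**
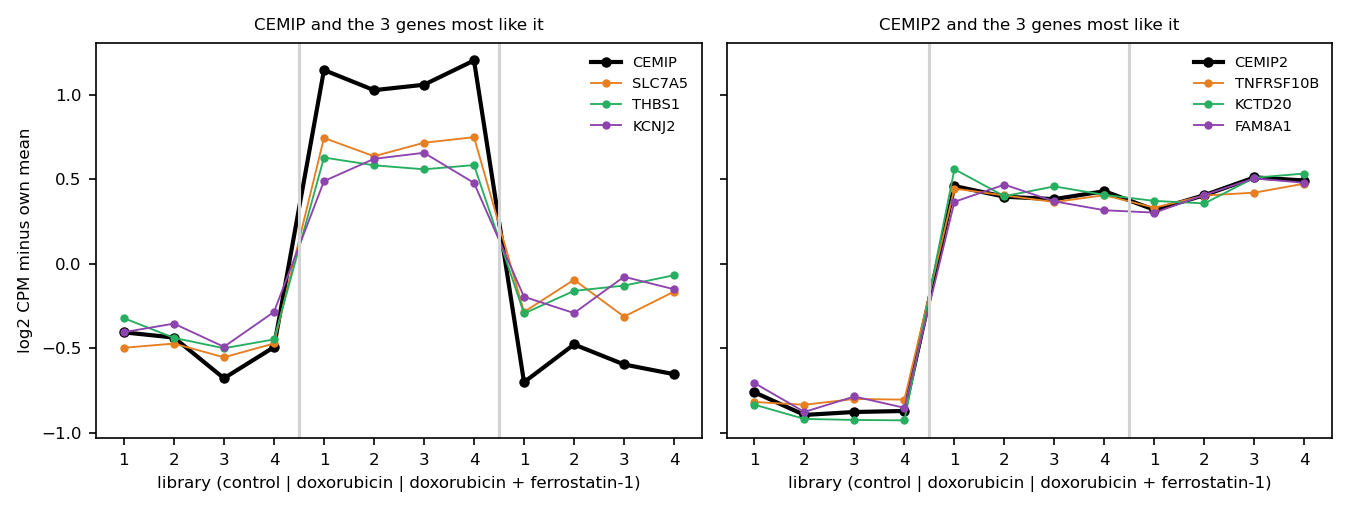
Log2 CPM minus the gene's own mean (vertical axis) over the 12 libraries (horizontal axis, by group) for CEMIP and CEMIP2 in black, each with its 3 nearest genes; lines only join a gene's points, since replicates have no order. CEMIP rises further with doxorubicin and ends lower with both compounds than SLC7A5, THBS1 and KCNJ2, whose root mean square differences are 0.329 to 0.426.

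In the fit over all genes, 4440 were called higher with doxorubicin and 394 called lower with ferrostatin-1 added, and 194 met both. In 7 of these both changes were at least 2-fold: CEMIP, ALPK2, C3, KRTAP1-1, KRTAP2-3, PARN and TMEM40, named after their values were seen. Both comparisons share the doxorubicin libraries, and no test of the overlap is given.

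The wider pathway was read from 6 lists of 96 genes, of which 85 were in the table and 66 had enough counts. With doxorubicin 30 of the 66 rose and 23 fell (80.3% called, beside 64.0% of all genes), and with libraries scaled by totals alone the split was 21 and 29. In that scaling the median of all genes was -0.15, and 3244 genes were called higher and 5754 lower, beside 4440 and 4393 with TMM factors. With ferrostatin-1 added, 5 rose and 5 fell (15.2% called, beside 5.01% of all genes), and 56 were not called. The lists were written with results of these data known, so nothing particular to them is read from these shares. Adjusted p-values here are over all 13803 genes and come from edgeR with n = 4 per group.

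**Figure D5:**
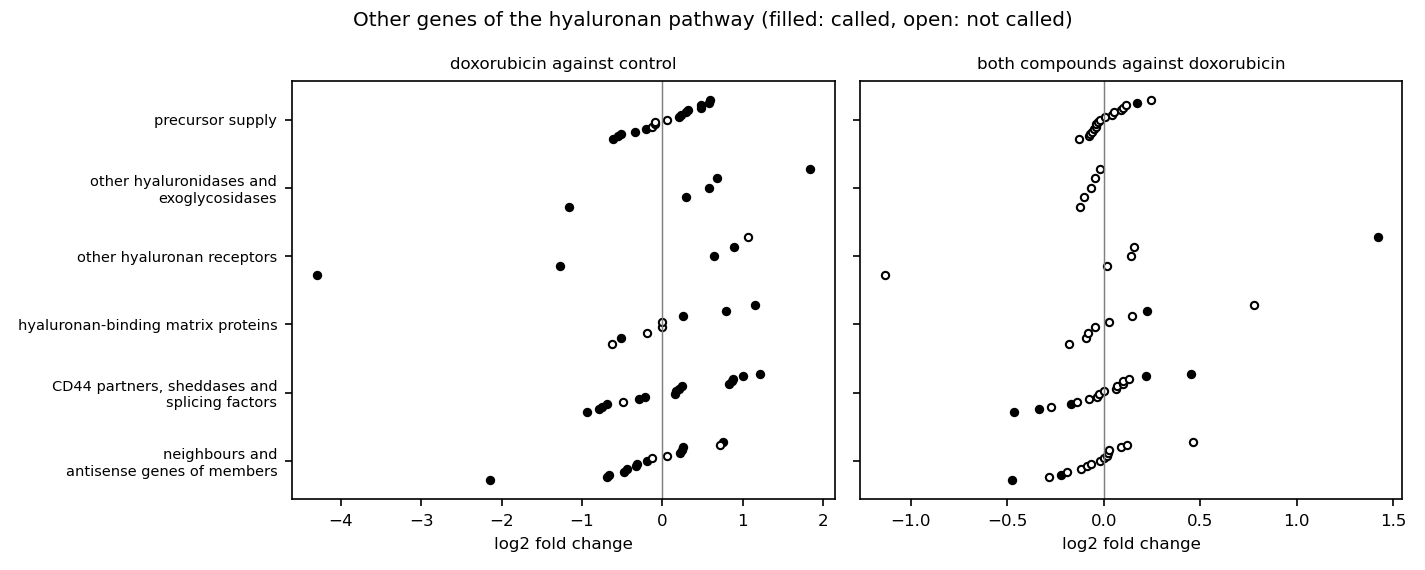
Log2 fold change (horizontal axes, which differ in range) of the 66 tested genes of the 6 pathway lists, 1 point per gene, for doxorubicin against control and for both compounds against doxorubicin; filled points were called. With doxorubicin 53 are filled, and with ferrostatin-1 added 10 are.

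Genes listed under the supply of sugar precursors moved both ways with doxorubicin. Of 17 tested, 8 rose and 5 fell (76.5% called, beside 64.0% of all genes). Their median log2 fold change was 0.05, beside -0.01 over all genes. The list also holds genes that carry, use or break down these sugars, such as SLC35D2, UXS1 and AMDHD2. Its counts therefore do not describe supply alone. GFPT1 and GFPT2, alternative enzymes for the first step towards UDP-N-acetylglucosamine, went apart. GFPT1 rose from 103 ± 5.26 to 155 ± 4.49 CPM, 0.60 ± 0.054 on the log2 scale (adjusted p = 1.71e-07), and GFPT2 fell from 9.52 ± 0.737 to 6.21 ± 0.574 (-0.62 ± 0.11, adjusted p = 0.00013). SLC35D2, a nucleotide sugar transporter of the Golgi, rose from 20.2 to 30.3 CPM (0.58 ± 0.067, adjusted p = 2.18e-06). UGDH, which makes UDP-glucuronic acid, was the only one called with ferrostatin-1 added. It was at 144 ± 4.42 CPM in controls, 125 ± 4.62 with doxorubicin and 141 ± 6.92 with both compounds, a log2 fold change of 0.17 ± 0.044 with ferrostatin-1 (adjusted p = 0.0367). Leaving out control replicate 3, among other libraries, ended that call (adjusted p = 0.0582), as did the replicate block (adjusted p = 0.0554). For both compounds against control, 8 rose and 6 fell (82.4% called, beside 64.3% of all genes). UAP1L1 (-0.64 ± 0.084) and AMDHD2 (-0.62 ± 0.11) had the largest falls.

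Enzymes that take the cut chains apart in lysosomes were tested in 5 cases, and 4 rose and 1 fell with doxorubicin, where 64.0% of all genes were called, while none was called with ferrostatin-1 added, where 5.01% were. IDUA, which removes iduronic acid from other glycosaminoglycans, had the largest rise, at 6.10, 5.04, 6.81 and 5.56 CPM in controls and 18.4, 21.2, 20.4 and 24.1 with doxorubicin (log2 fold change 1.84 ± 0.12, adjusted p = 3.44e-09). GUSB, which removes glucuronic acid, fell from 55.3, 57.8, 56.0 and 58.8 CPM in controls to 26.4, 25.3, 25.9 and 24.5 (-1.16 ± 0.052, adjusted p = 6.35e-11). HEXA, a subunit of the hexosaminidase that removes N-acetylhexosamine, rose from 92.5 ± 3.49 to 148 ± 6.25 (0.68 ± 0.042, adjusted p = 2.79e-09). The exoglycosidases for the alternating sugars of hyaluronan thus went apart. With both compounds IDUA stood at 20.1, GUSB at 24.7 and HEXA at 136 CPM.

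Among 5 tested receptors other than CD44, 2 rose and 2 fell with doxorubicin, beside 32.2% and 31.8% of all genes. HMMR, also called RHAMM, which binds hyaluronan and also acts at the mitotic spindle, fell from 58.5, 53.9, 56.0 and 54.4 CPM in controls to 3.05, 2.94, 2.52 and 2.76 with doxorubicin (-4.30 ± 0.095, adjusted p = 2.6e-14) and stood at 3.15 ± 0.506 with both compounds. MKI67 fell in the same libraries, as given above, and its part in the HMMR values was not tested. TLR4, an innate immune receptor that hyaluronan fragments can engage, rose from 49.5 ± 3.43 to 92.2 ± 3.46 CPM (0.90 ± 0.058, adjusted p = 4.05e-09). TLR2 was near the limit at 0.891, 0.365 and 0.984 CPM, lower with doxorubicin (-1.27 ± 0.37, adjusted p = 0.00721) and higher with ferrostatin-1 added (1.42 ± 0.36, adjusted p = 0.0362). The latter did not pass when control replicate 3 (adjusted p = 0.0554) or any 1 of the 4 doxorubicin libraries was left out. Nor did it pass without the filter on low counts (adjusted p = 0.0563), with the replicate block (adjusted p = 0.0733) and under several other settings. LAYN, a membrane receptor for hyaluronan, was at 58.9, 92.2 and 101 CPM, with 0.78 ± 0.041 for both compounds against control.

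Of 20 listed matrix proteins that bind hyaluronan and were in the table, 12 were below the filter, and of 8 tested 3 rose and 1 fell with doxorubicin (50.0% called, beside 64.0% of all genes). FN1, fibronectin, rose from 7110 ± 727 to 12358 ± 710 CPM (0.80 ± 0.069, adjusted p = 1.09e-07). PTX3, a pentraxin of the hyaluronan-rich matrix, fell from 62.5 ± 4.02 to 43.8 ± 2.03 (-0.51 ± 0.053, adjusted p = 7.53e-07). HAPLN3, a link protein, was scarce, at 0.322 ± 0.0407 CPM in controls and 0.729 ± 0.317 with doxorubicin (1.15 ± 0.37, adjusted p = 0.0142), which no longer passed when doxorubicin replicate 1 was left out (adjusted p = 0.0536). With both compounds HAPLN3 stood at 1.25 ± 0.296, or 1.93 ± 0.36 against control. VCAN, versican, gave -0.01 ± 0.084 with doxorubicin and was not called. HABP4, an RNA-binding protein in which hyaluronan binding was also described, was the 1 gene called with ferrostatin-1 added, at 67.5 ± 2.44 and then 78.7 ± 4.40 CPM (0.22 ± 0.050, adjusted p = 0.0173). It did not pass with doxorubicin replicate 1 left out (adjusted p = 0.0717). The same held without replicate 1 (adjusted p = 0.0639) or 4 (adjusted p = 0.0523) of both compounds.

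Of 16 tested partners, sheddases and splicing factors of CD44, 9 rose and 6 fell with doxorubicin (93.8% called, beside 64.0% of all genes), and 2 rose and 3 fell with ferrostatin-1 added (31.2% called, beside 5.01%). SPP1, the CD44 ligand osteopontin, climbed at both steps, from 19.8, 22.2, 22.0 and 21.3 CPM in controls to 47.8, 51.8, 49.0 and 49.1 with doxorubicin and 71.7, 58.3, 69.9 and 70.4 with both compounds. Its log2 fold changes were 1.21 ± 0.067 (adjusted p = 6.88e-10) and 0.45 ± 0.063 (adjusted p = 0.00042), and the groups did not overlap. MMP14, a membrane protease that sheds CD44, rose from 1006 ± 48.4 to 2010 ± 40.5 CPM with doxorubicin (1.00 ± 0.042, adjusted p = 3.07e-11) and stood lower, at 1594 ± 79.7, with both compounds (-0.33 ± 0.042, adjusted p = 0.00015). MMP14 thus moved in the directions of CEMIP, and its libraries were above every control. KHDRBS1, or Sam68, a splicing factor for CD44 variant exons, fell from 267 ± 5.90 to 139 ± 5.00 (-0.94 ± 0.040, adjusted p = 3.22e-11). ANK3, an ankyrin that binds CD44, gave -0.46 ± 0.12 with ferrostatin-1 added (adjusted p = 0.0453), which did not pass with control replicate 2 left out (adjusted p = 0.0607) and under several other settings. Against control, NF2, the brake on the CD44 to cytoskeleton link, was 0.94 ± 0.040 with both compounds.

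Genes beside or antisense to the members moved in both directions. Of 15 tested, 4 rose and 8 fell with doxorubicin (80% called, beside 64.0% of all genes) and 2 fell with ferrostatin-1 added (13.3%, beside 5.01%). TUSC2, whose annotated span overlaps that of HYAL2 on the same strand without shared exon bases, rose from 27.2 ± 4.74 to 46.0 ± 3.22 CPM (0.75 ± 0.10, adjusted p = 1.59e-05), and ZMYND10, in the same cluster, fell from between 1.91 and 2.19 CPM in controls to between 0.214 and 0.748 (-2.14 ± 0.38, adjusted p = 0.00018). ABHD17C, near CEMIP, fell from 26.7 ± 1.89 to 16.5 ± 1.13 CPM with doxorubicin (-0.69 ± 0.079, adjusted p = 2.24e-06). With ferrostatin-1 added, SNTB1, on the HAS2 side of chromosome 8, was at 12.0 ± 1.41 CPM beside 16.7 ± 0.898 with doxorubicin (-0.48 ± 0.080, adjusted p = 0.00207). In the same comparison ZHX2 gave -0.22 ± 0.057 (adjusted p = 0.0396). The ZHX2 call was lost in DESeq2 (adjusted p = 0.0917) and in edgeR with the replicate block (adjusted p = 0.0757). It was also lost when any 1 of the 4 doxorubicin libraries was left out, and under several other settings.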

How the data were processed

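RNA of RPE1 cells was sequenced in 12 paired-end libraries from a kit that does not mark strand, per the labels. The deposited table holds whole-number counts per gene identifier. Salmon, DESeq2 and the build GRCh38 are named in the submitters' processing notes, with neither version nor step, and how estimates became whole numbers is not given in the sources used here. Each column was placed in its group by the group name in its header. A side column of 71 symbols held 0 of the 9 members and was not used.

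The filterByExpr step of edgeR, with a minimum count of 10 and a total of at least 15, passed 13803 genes. TMM factors scaled the libraries, and 1 quasi-likelihood model over all 12 libraries gave 3 contrasts, with two-sided p-values adjusted by Benjamini-Hochberg over all genes and calls at 0.05. Software was R 4.3.3, edgeR 4.0.16, limma 3.58.1, DESeq2 1.42.0, Python 3.11.15, numpy 2.4.6, pandas 2.3.3 and matplotlib 3.10.9, and the fit was tested on simulated data. Positions and exon lengths are from GENCODE 29, matched for 20819 of 22498 identifiers, and promoter windows are from RefSeq. Library totals ran from 17523920 to 24879198, and a floor of 3 counts was 0.124 to 0.172 CPM, which covers counting error only. Standard errors, 95% intervals and p-values come from the model and cover counting error and the spread between replicates, which may be technical.

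The members and lists were chosen with earlier results of these data known. In each list and comparison the 3 called genes with the largest absolute log2 fold change were picked, of which a selection is described, with listed genes that overlap a member. Genes of like pattern were compared from a mean log2 CPM of 1, with a prior count of 2, and named for members whose group means span at least 1 log2 unit. Alternatives were DESeq2, other scaling, no filter, fewer groups, a replicate block, other identifier handling and leaving out each library.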

Additional observations from a re-analysis of the deposited data

Results flagged for a closer look

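CEMIP2 in control replicate 1 was at 82.8 CPM, apart from the other 3 control libraries at 75.5 to 76.7 CPM. The gap was 0.832 of the group's whole range, just past Dixon's 95% critical value for 4 samples. It was the only one of 27 gene and group combinations to stand out in this way, and chance flags about 1 in 20. Among the controls, the same library had the lowest HYAL2 and HAS3 and the highest CD44. Without it, the log2 fold change of CEMIP2 with doxorubicin was 1.30.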

How the results depend on the processing

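The 2 members called with ferrostatin-1 added, CEMIP and HAS3, were called lower under all 19 alternatives. Members called with doxorubicin numbered 5 to 7, the difference being HAS2 and HAS3, and those called for both compounds against control 5 to 6. DESeq2 called 8731, 868 and 8789 genes, beside 8833, 692 and 8873. The fit of all identifiers that share a symbol could not differ, since 0 members have several.

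Pathway genes called with ferrostatin-1 added numbered 10, but 6 without the filter on low counts, where more genes were tested, and 4 to 10 when 1 library was left out, lowest without doxorubicin replicate 1. The replicate block gave 6. Same-numbered libraries deviated together at r = -0.0954 to 0.0534 in 12 pairs, beside -0.146 to 0.154 in 36 others. No pairing by number was seen, but this check cannot exclude one, since nothing states how the replicates were made.

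Among the genes named here, signs turned only near 0, for both compounds against doxorubicin: CD44 with library totals alone (-0.0040), CD44 over left-out libraries (-0.019 to 0.015) and CEMIP2 over left-out libraries (-0.012 to 0.052). With both compounds against control, totals alone gave 3201 genes higher and 5940 lower, beside 4420 and 4453. The cause was not tested. Over all settings, values of named genes lost a call 59 times and gained one 2 times. Depth limits HAS1, HAS2 and HYAL1.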
